A study of Homo sapiens with 26 samples.

Results

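AsPC-1 (written ASPC1 in the labels) is an established human pancreatic ductal adenocarcinoma cell line. In it, the HNF4A gene was repressed by CRISPR interference (CRISPRi), in which a guide RNA directs an inactive Cas9 to a start site and transcription there falls. The comparison described here sets cells with guides against the P2 promoter (guides sgP2D and sgP2G) against cells with guides against the P1 promoter (sgP1E and sgP1J). Each guide had 2 libraries, so 4 sgP2 libraries stand against 4 sgP1 libraries, which is 8 of the 26 libraries of the study and 8 of the 14 from AsPC-1. The other AsPC-1 libraries are 2 with a control guide (sgNC) and 4 with guides against both isoforms (sgDual2 and sgDual3). The genotype labels placed the libraries in their groups. In 2 further lines, Panc10.05 and BxPC3, HNF4A isoforms were added instead of repressed under doxycycline (dox), and they serve below as separate libraries. Each has 2 libraries with P1-a2, 2 with P2-a8 and 2 of a control, NC (titled GFP-NC in Panc10.05 and EV-NC in BxPC3); BxPC3 cells all received 500 ng/mL of dox, and Panc10.05 cells 25 ng/mL with P1-a2 and NC but 12.5 ng/mL with P2-a8. All 8 libraries carry a CRISPRi guide to the same gene, and neither group is unperturbed. Whether the AsPC-1 cells were pools or single clones, and which repressor domain was used, is not given in the sources used here. The question was which differences between the 2 groups hold for every pair of guides.

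HNF4α is a nuclear receptor that binds DNA as a homodimer and sustains gene programmes of liver, intestine and pancreas. Its P1 promoter gives isoforms with an N-terminal activation domain, while the P2 promoter, which lies far upstream, gives isoforms that start with another first exon and lack that domain. P1 isoforms prevail in adult liver, P2 isoforms are found in pancreas and stomach, and intestine carries both. A gene count sums both kinds, so which isoforms remained after repression of either promoter was not measured here.

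The promoter windows of the locus are shown first, because the guides are directed at these promoters and a non-coding gene beside P2 separated the targets more sharply than HNF4A did. The sequences are the 250 bases before each start in the RefSeq promoter table (GRCh38.p14), each 5′ to 3′ on the strand of its gene. Capitals mark the 44 bases that the P2 window and the window of R3HDML-AS1, a long non-coding RNA gene on the opposite strand, share as reverse complements.
HNF4A P2 start, chr20:44355449-44355698, plus strand: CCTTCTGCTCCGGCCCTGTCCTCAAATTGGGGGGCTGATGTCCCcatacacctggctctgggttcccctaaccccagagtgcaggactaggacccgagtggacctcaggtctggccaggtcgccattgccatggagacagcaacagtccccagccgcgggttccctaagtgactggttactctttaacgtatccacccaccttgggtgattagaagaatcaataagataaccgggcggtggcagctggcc
R3HDML-AS1 start, chr20:44355243-44355492, minus strand: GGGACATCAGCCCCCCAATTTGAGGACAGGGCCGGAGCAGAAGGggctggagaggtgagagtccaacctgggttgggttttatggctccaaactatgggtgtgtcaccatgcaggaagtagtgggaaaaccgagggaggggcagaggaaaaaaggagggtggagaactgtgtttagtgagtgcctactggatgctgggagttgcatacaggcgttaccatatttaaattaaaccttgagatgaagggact
HNF4A P1 start, chr20:44400989-44401238, plus strand: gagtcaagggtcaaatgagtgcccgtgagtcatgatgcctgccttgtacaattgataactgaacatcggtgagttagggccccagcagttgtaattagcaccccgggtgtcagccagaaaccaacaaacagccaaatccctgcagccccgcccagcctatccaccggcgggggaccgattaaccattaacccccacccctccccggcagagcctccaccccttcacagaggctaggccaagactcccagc
The P2 start lies 45540 bases upstream of the P1 start, and the start of R3HDML-AS1 lies 457 bases from the P2 start on the other strand. GENCODE v29 places no exon in the 3 windows, and the P1 window falls inside the HNF4A gene. No guide sequence was used here, so the position of the guides within these windows is not stated.

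HNF4A RNA was lower with either kind of guide than with sgNC, and lower still with sgDual. In CPM, the count of a gene scaled to the size of its library, HNF4A stood at 144 and 146 with sgP1E, 118 and 109 with sgP1J, 93.9 and 91.4 with sgP2D, and 84.0 and 76.7 with sgP2G. With sgNC it stood at 206 and 220, and with sgDual between 3.19 and 13.6. All 4 sgP2 libraries lay below all 4 sgP1 libraries, at 86.5 ± 7.74 against 129 ± 18.4 CPM (mean ± SD, n = 4 each). The difference of -0.58 on the log2 scale (SE 0.306) did not pass the threshold, an adjusted p of 0.05, in edgeR's quasi-likelihood test over all 14 AsPC-1 libraries (adjusted p = 0.343). It passed when only the 8 libraries were fitted (edgeR adjusted p = 0.0328). Against sgNC, edgeR gave -0.72 for sgP1 (adjusted p = 0.615) and -1.30 for sgP2 (adjusted p = 0.0751). Every sgP1 and sgP2 library lay below both sgNC libraries, and neither group passed. The fit over 14 libraries takes its spread also from sgDual, at 3.19 and 10.3 CPM with sgDual2 and 4.83 and 13.6 with sgDual3. The part of these libraries in the results against sgNC was not tested. HNF4G, the paralogue of HNF4A, overlapped between the groups, with 37.1 ± 6.62 CPM in sgP1 and 32.5 ± 6.16 in sgP2 (edgeR adjusted p = 0.605). HNF4A-AS1 had 0 counts in all 14 libraries.

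R3HDML-AS1 (ENSG00000226812, chr20:44347552-44355185, minus strand, GENCODE v29) separated the 2 targets completely. It had 128, 70, 54 and 60 counts in the sgP1 libraries (sgP1E replicates 1 and 2, then sgP1J) and 0 counts in each sgP2 library. With sgNC it had 70 and 66 counts, and with sgDual 0, 2, 1 and 3. The level with sgP1, 2.03 ± 0.382 CPM (SD, n = 4), lay beside the 2.22 and 2.12 CPM of sgNC, while the sgP2 level was at least 20.6-fold lower than that of sgP1, taking 3 counts per library as the floor (edgeR adjusted p = 7.77e-06). This gene was chosen after its values were seen and lies below the level required for naming, yet it passed the threshold in every guide pair and under all 20 alternative settings. R3HDML, the coding gene on its other strand, had 0 counts in all 14 libraries. Of 12 tested genes listed as neighbours of HNF4A 1 passed, a share near the 4.3% of all genes tested: ADA, which encodes adenosine deaminase and lies at chr20:44619522-44652233, was 1.86-fold higher with sgP2 (edgeR adjusted p = 0.0033). ADA passed in 3 of the 4 guide pairs and overlaps PKIG on the opposite strand.

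**Figure D1:**
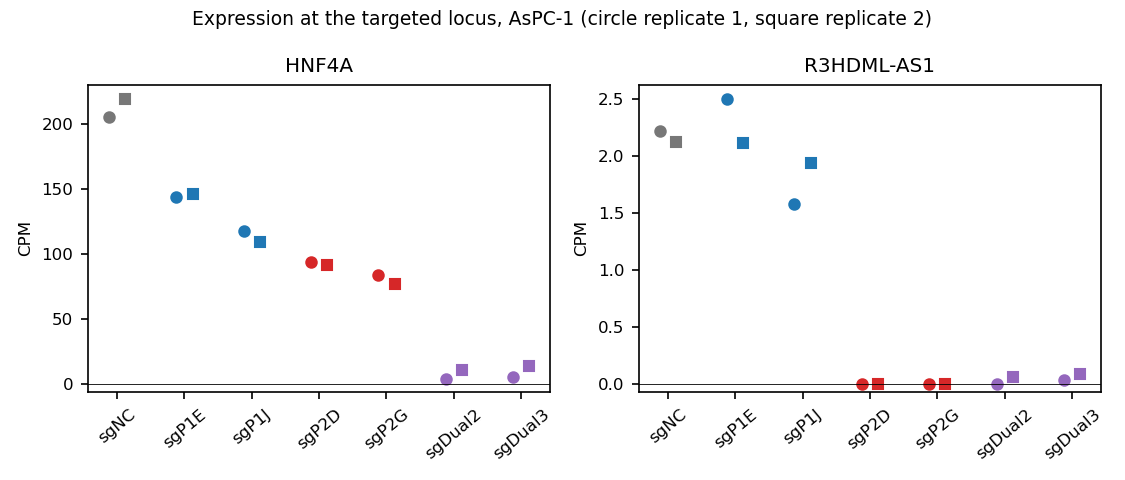
CPM of HNF4A and R3HDML-AS1 (y axes, linear) in all 14 AsPC-1 libraries, ordered by guide (x axis); colours mark the target, circles replicate 1 and squares replicate 2. HNF4A is graded from sgNC to sgDual, whereas R3HDML-AS1 is at 0 with both sgP2 guides and at 1.58 to 2.50 CPM with the sgP1 guides.

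The 8 libraries held 26079388 to 50662077 counts, and mitochondrial genes took 7.74 to 9.07% of them. Of 8 markers of ductal epithelium, 7 were above 1 CPM in all 8 libraries, with KRT8 at 4210 to 9180 CPM, while KRT7 ran from 0.503 to 2.45. The summed level of these markers was 8560 to 18400 CPM in sgP1 and 10500 to 11900 in sgP2. Acinar, islet and endothelial markers each summed to under 1 CPM; CD68 (3.15 to 5.31 CPM) alone among leukocyte markers and LUM (130 to 199 CPM) alone among fibroblast markers were above 1 CPM in all 8 libraries. The fibroblast markers summed to 178 to 200 CPM in sgP1 and 132 to 168 in sgP2. Nearly all of this sum was LUM, since each other fibroblast marker stayed at or below 0.923 CPM. The part of these markers in the results was not tested. Unless only the 8 libraries were fitted, p-values between the targets measure the spread between libraries of all AsPC-1 groups, sgNC and sgDual included. They are no more than a spread between libraries, since nothing in the labels says that replicates were separate cultures. The 2 libraries of 1 guide also share that guide.

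Between sgP2 and sgP1, 731 of 16992 tested genes passed the threshold, 369 higher (2.17%) and 362 lower (2.13%) with sgP2, which is 4.3% in all. Where genes of a list are said below to rise or fall with sgP2, this is relative to sgP1. It need not be a change from sgNC. In 672 of them every sgP2 library lay on one side of every sgP1 library, and over all tested genes this held for 1644 (9.68%). The count rested on single libraries: it became 1208 without sgP1E replicate 1, 324 without sgP2D replicate 1, 374 without sgP2G replicate 1 and 450 without sgP1J replicate 2. With the replicate number as a block it was 1204, and 730 of the 731 genes were among them. When the counts of each guide were summed, so that 2 guides stood against 2, edgeR called 6 genes (1813 at an unadjusted p under 0.05): CIDEB was higher, and MMP7, C2orf88, R3HDML-AS1, SOSTDC1 and ENSG00000289332 were lower with sgP2.

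The guides of 1 target were not interchangeable. The 2 sgP1 guides differed from each other in 2467 genes (14.5%), 1139 higher and 1328 lower with sgP1J, in the fit with 7 guide groups, where the 2 targets differed in 2086. The 2467 became 1535 without sgP1E replicate 1, 1492 without sgP1E replicate 2 and 1572 without sgP1J replicate 2. The 2 sgP2 guides differed in 288 genes (1.69%), and in 137 to 162 without any 1 of their 4 libraries. The guide pairs accordingly ran with the sgP1 guide used: 968 genes (5.7%) for sgP2D against sgP1E and 803 (4.73%) for sgP2G against sgP1E, but 2611 (15.4%) and 2152 (12.7%) against sgP1J. Of the 731 genes, 149 also differed between the sgP1 guides and 14 between the sgP2 guides. Without guide sgP1E, 2764 genes passed between the targets, and without sgP1J 864.

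A further 26 genes passed in all 4 guide pairs with opposite signs. In 16 of them the sgP2 guides lay between a higher sgP1J and a lower sgP1E, in 9 between a higher sgP1E and a lower sgP1J, and in KIT the sgP1 guides lay between the sgP2 guides. ANO1, a calcium-activated chloride channel, had a mean of 161 CPM with sgP1E, 426 with sgP1J and 274 over the sgP2 libraries. ESRP2, an epithelial splicing regulator, had 3.65, 17.4 and 8.41 CPM, and SCARA3, a scavenger receptor-like protein, had 43.6, 7.55 and 19.7 CPM. These genes, chosen after their values were seen, separate every sgP2 guide from every sgP1 guide without separating the targets.

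**Figure D2:**
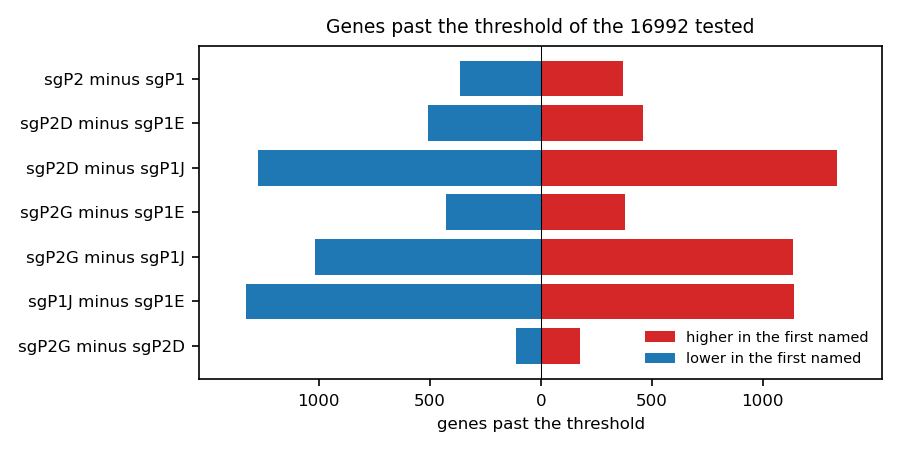
Number of genes past the threshold (x axis, bars from 0) in the comparison of targets, in the 4 guide pairs and between the 2 guides of each target; red bars count genes higher and blue bars genes lower in the first-named group. The pair of sgP1 guides gives 2467 genes and the pair of sgP2 guides 288.

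In every guide pair and with one sign, 148 genes (0.871%) passed, 79 higher and 69 lower with sgP2. All 148 had libraries that did not overlap, against 9.68% of all tested genes, but passing in every pair with one sign itself favours this. Of the 148, 144 were among the 731. Of the 731 genes, 49 passed in no guide pair, 79 in 1, 295 in 2, 164 in 3 and 144 in all 4. With the replicate block, 464 genes passed in every pair (256 higher, 208 lower), including all 148. Without sgP2D replicate 1 the count was 75, without sgP2G replicate 1 it was 62, without sgP1E replicate 2 it was 81 and without sgP2G replicate 2 it was 84. The 4 pairs share libraries, so passing in all of them is not 4 separate tests.

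Of the genes higher with sgP2, 3 belong to lipid droplets and triglyceride synthesis: CIDEB, CIDEC and MOGAT3. CIDEB, a lipid droplet protein of hepatocytes that takes part in loading lipid onto VLDL, stood at 2.24 and 2.95 CPM with sgP1E, 1.98 and 2.52 with sgP1J, 16.7 and 15.0 with sgP2D, and 20.4 and 15.7 with sgP2G. Its sgNC libraries, at 9.16 and 10.4 CPM, lay between the groups, and its sgDual libraries lay below both, at 0.179 to 0.664 CPM. The 7.01-fold difference (log2 2.81, SE 0.216; edgeR adjusted p = 7.77e-06) was between 2.63 and 3.01 on the log2 scale in the 4 guide pairs and passed under all 20 alternative settings. Against the 2 sgNC libraries, which both comparisons share, CIDEB fell by 2.02 on the log2 scale with sgP1 (edgeR adjusted p = 0.00247) and differed by 0.79 with sgP2 (edgeR adjusted p = 0.0947). CIDEB (ENSG00000136305, chr14:24305096-24311430, minus strand) overlaps NOP9 and LTB4R2 on the opposite strand, and the strand setting of the counting is not given; NOP9 stood at 73.5 CPM in sgP1 and 81.7 in sgP2 (edgeR adjusted p = 0.445) and LTB4R2 at 1.96 and 2.21 (edgeR adjusted p = 0.633).

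CIDEC, a paralogue that enlarges lipid droplets, and MOGAT3, a monoacylglycerol acyltransferase, were higher with sgP2 in every guide pair as well. CIDEC stood at 13, 12.2, 11.1 and 10.7 CPM in the sgP1 libraries and at 25.0, 25.7, 21.6 and 20.1 in the sgP2 libraries, against 26.8 and 28.2 with sgNC and 1.95 to 3.18 with sgDual. The sgP2 libraries thus stood near the control level and the sgP1 libraries below it. The difference was 1.96-fold (SE 0.118 on the log2 scale, edgeR adjusted p = 0.000511). MOGAT3 stood at 19.9 and 17.4 CPM with sgP1E, 9.30 and a little more with sgP1J, and 30.0 to 39.9 with the sgP2 guides, near the 30.9 and 27.3 of sgNC and far above the 0.746 to 1.5 of sgDual. Its difference was 2.39-fold (edgeR adjusted p = 0.00887), and its 2 sgP1 guides differed from each other (edgeR adjusted p = 0.00173).

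Of 15 tested genes of a lipid transport list, 3 rose with sgP2 (these 3) and 1 fell (APOC1, an apolipoprotein, at 1.34 CPM in sgP1 and 0.543 in sgP2, edgeR adjusted p = 0.0249); over all genes tested 2.17% rose and 2.13% fell. The median log2 fold change of the list was 0.0592, against -0.00503 over all genes tested. The count was 1 to 6 under the alternative settings. DGAT1, which makes triglyceride, stood at 102 and 107 CPM, and CREB3L3, a transcription factor of lipid metabolism, at 190 and 230 (edgeR adjusted p = 0.757 and 0.0891).

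Among brush border genes, 2 of 21 tested rose with sgP2 and none fell at the threshold (6 were at an unadjusted p under 0.05; edgeR), where 2.17% of all tested genes rose. CDHR2, a protocadherin that links the tips of microvilli, stood at 88.5 to 104 CPM with sgP1, 149 to 183 with sgP2 and 156 and 166 with sgNC. The groups did not overlap, and the 1.69-fold difference passed in every guide pair (edgeR adjusted p = 0.00378). NHERF1, a scaffold of the apical membrane, was 1.37-fold higher (edgeR adjusted p = 0.0166) and passed in 3 of 4 pairs. SLC9A3, the apical sodium-proton exchanger, outside the list and chosen after its values were seen, stood at 57.1 and 50.6 CPM with sgP1E, 31.2 and 25.0 with sgP1J, and 76.4 to 93.5 with sgP2 (2.12-fold, edgeR adjusted p = 0.0183). MYO15B, an unconventional myosin also outside the list, stood at 20.3 and 22.7 CPM with sgP1E, 61.5 and 52.0 with sgP1J, and 97.7 to 111 with sgP2. The sgP1 guides differed from each other for SLC9A3, MYO15B and NHERF1 (edgeR adjusted p = 0.000212, 1.19e-06 and 0.00088), and for CDHR2 their difference did not pass (edgeR adjusted p = 0.345).

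The other genes named as higher had varied roles, and their place against the control guide differed. CHST2, which sulfates N-acetylglucosamine, stood at 2.68 to 4.88 CPM with sgP1, 11.4 to 17.7 with sgP2 and 12.4 and 9.99 with sgNC (3.54-fold, edgeR adjusted p = 0.000428), so the control lay nearer to sgP2. The control lay nearer to sgP2 also for CRYBG2, which carries crystallin-like domains, with 5.81 to 8.52 CPM in sgP1, 13.1 to 21.5 in sgP2 and 16.3 and 13 in sgNC (2.31-fold, edgeR adjusted p = 0.0025). The same was seen for CALB2, the calcium-binding protein calretinin, with 23.2 to 38.8, 56.7 to 77.3, and 50.7 and 66.7 CPM (2.24-fold, edgeR adjusted p = 0.00229), and for TFCP2L1, a transcription factor of the grainyhead-like family, with 3.25 to 7.30, 9.53 to 12.8, and 10.9 and 8.93 CPM (2.4-fold, edgeR adjusted p = 0.00221). Of these 4, CHST2 passed against sgNC with sgP1 (edgeR adjusted p = 0.0154), and the adjusted p of the other 3 lay between 0.0829 and 0.0878. The sgP1 guides differed from each other for TFCP2L1 (edgeR adjusted p = 0.0411).

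For 4 other genes the sgP2 libraries stood above the control and the mean of the sgP1 libraries beside it. OSBPL6, an oxysterol-binding protein homologue, stood at 11.2 to 12.6 CPM in sgP1, 12.5 and 12.6 in sgNC, and 26.8 to 36.2 in sgP2 (2.61-fold, SE 0.1 on the log2 scale, edgeR adjusted p = 3.54e-06). AKR1B10, an aldo-keto reductase that reduces retinal and other aldehydes, stood at 2.93 and 3.16 CPM with sgP1E, 1.46 and 1.58 with sgP1J, 1.58 and 2.31 with sgNC, and 7.10 to 13.8 with sgP2 (4.46-fold, edgeR adjusted p = 0.000544). ISM1, a secreted protein, and SRGAP3 were 2.33-fold and 2.73-fold higher with sgP2 than with sgP1 (edgeR adjusted p = 0.000708 and 0.00541). All 4 passed against sgNC with sgP2 (edgeR adjusted p from 9.26e-05 to 0.0144) and differed by at most 0.24 on the log2 scale with sgP1 (edgeR adjusted p from 0.912 to 0.959). The sgP1 guides differed from each other for AKR1B10 and SRGAP3. On the log2 scale sgP1J minus sgP1E was -0.996 and 1.104 (edgeR adjusted p = 0.0239 and 0.00676). STARD8, which has a lipid-binding START domain, stood at 2.55 to 6.30 CPM in sgP1, 11.1 to 12.6 in sgP2 and 7.67 and 8.93 in sgNC, between the groups. Its 2 sgP1 guides differed from each other (edgeR adjusted p = 0.000294).

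CDH1, the epithelial adhesion protein E-cadherin, was 2.44-fold higher with sgP2 (55.7 to 67.3 against 13.3 to 43.3 CPM; edgeR adjusted p = 0.0322), but it passed in 2 of the 4 guide pairs, those with sgP1J. Its sgDual libraries stood at 61.2 to 77.3 CPM and its sgNC libraries at 35.6 and 64.0, so the 2 control libraries lay far apart.

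**Figure D3:**
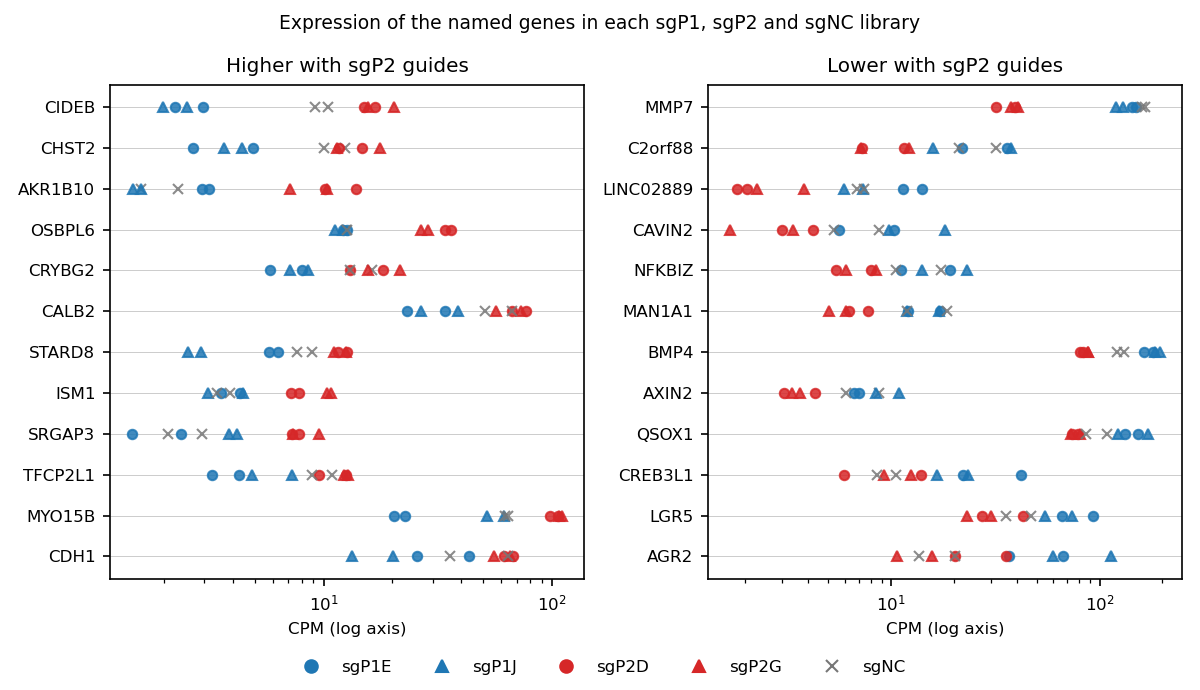
CPM (x axis, log scale) of the 12 genes named as higher and the 12 named as lower with sgP2, in each sgP1 (blue), sgP2 (red) and sgNC (grey) library; circles and triangles separate the 2 guides of a target. CIDEB runs from 1.98 to 2.95 CPM with sgP1 and from 15.0 to 20.4 with sgP2, and MMP7 from 120 to 150 and from 31.9 to 40.6.

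MMP7, the secreted protease matrilysin, had the smallest adjusted p of all tested genes and was lower with sgP2. It stood at 150 and 143 CPM with sgP1E, 120 and 129 with sgP1J, 31.9 and 39.5 with sgP2D, and 37.4 and 40.6 with sgP2G, against 165 and 159 with sgNC and 82.4 to 100 with sgDual. The sgP1 libraries lay near the control and the sgP2 libraries below every other group. The level was 3.63-fold lower with sgP2 than with sgP1 (log2 -1.86, SE 0.092; edgeR adjusted p = 4.69e-08) and passed under all 20 alternative settings, and it fell by 2.12 on the log2 scale against sgNC (edgeR adjusted p = 4.85e-08). MMP7 (ENSG00000137673) lies at chr11:102520508-102530753 on the minus strand and overlaps no other annotated gene.

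Of 13 tested members of a Wnt feedback list, 6 fell with sgP2, none rose (9 were at an unadjusted p under 0.05; edgeR) and 3 fell in every guide pair; 2.13% of all tested genes fell. The median log2 fold change of the list was -0.605, against -0.00503 over all genes tested, and the count ran from 0, when counts were summed per guide, to 9 over the alternative settings. This list, like the others, was chosen with earlier results of these data known, so its count and median are not independent support. Of the 3 members that fell in every guide pair, 1 is the TGF-β family ligand BMP4. AXIN2, a scaffold of the β-catenin destruction complex and a transcriptional target of the pathway, stood at 7 and 6.65 CPM with sgP1E, 10.9 and 8.42 with sgP1J, and 3.05 to 4.33 with sgP2 (2.3-fold lower, edgeR adjusted p = 0.00411). LGR5, the R-spondin receptor that marks intestinal stem cells, stood at 65.9 and 93.3 CPM with sgP1E, 54.8 and 74.0 with sgP1J, and 23.1 to 42.9 with sgP2 (2.34-fold lower, edgeR adjusted p = 0.00378). For both, no sgP2 library reached a sgP1 library, which the rule for naming required. The mean with sgNC was 7.39 CPM for AXIN2 and 41.2 CPM for LGR5, the latter between the groups. Against sgNC, AXIN2 fell by 1.04 on the log2 scale with sgP2 (edgeR adjusted p = 0.0281). LGR5 passed against sgNC with neither sgP1 nor sgP2 (edgeR adjusted p = 0.241 and 0.375).

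BMP4, a secreted ligand of the TGF-β family, stood at 163, 180, 185 and 196 CPM with sgP1, 80.5 to 87.9 with sgP2, 131 and 121 with sgNC, and 344 to 421 with sgDual. It was 2.13-fold lower with sgP2 than with sgP1 (SE 0.079 on the log2 scale, edgeR adjusted p = 3.54e-06). Against sgNC it rose by 0.52 on the log2 scale with sgP1 (edgeR adjusted p = 0.037) and fell by 0.57 with sgP2 (edgeR adjusted p = 0.00501), so the groups lay on opposite sides of the control. TNFRSF19 was 1.64-fold lower (edgeR adjusted p = 0.00682) and passed in 3 of the 4 guide pairs. NKD1 and RNF43, which restrain the pathway, also fell, from 1.04 to 0.392 CPM and from 4.91 to 2.72 (edgeR adjusted p = 0.0064 and 0.0144). LGR4, ZNRF3 and DKK1 stood at 281, 13.8 and 307 CPM in sgP1 and at 292, 12.9 and 312 in sgP2 (edgeR adjusted p = 0.843, 0.712 and 0.95). LGR5 overlaps TSPAN8 on the opposite strand, which stood at 678 CPM in sgP1 and 447 in sgP2 (edgeR adjusted p = 0.0603).

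Of 23 tested genes of a list that marks classical pancreatic tumours, 4 fell (AGR2, REG4, ANXA10 and SLC44A4) and 2 rose (MUC17 and TMEM45B) with sgP2; 1 of the 6, REG4, passed in every pair, and the list's median was -0.359. Over all genes tested 2.13% fell and 2.17% rose, and the list's count of 6 ran from 0 to 13 under the alternative settings. ANXA10 and SLC44A4 were at 1.59 and 0.21 CPM in sgP1. REG4, a secreted lectin, stood at 30.7 and 35.4 CPM with sgP1E, 24.5 and 24.4 with sgP1J, 12.6 to 15.3 with sgP2, and 7.79 and 6.94 with sgNC. It was 2.11-fold lower with sgP2 than with sgP1 (edgeR adjusted p = 0.000291), and both groups rose against sgNC (edgeR adjusted p = 7e-05 for sgP1 and 0.00791 for sgP2). Its 2 sgP1 guides differed from each other (edgeR adjusted p = 0.036). AGR2, an endoplasmic reticulum protein needed to fold mucins, stood at 36.6 to 114 CPM in sgP1 and 10.7 to 35.7 in sgP2 (edgeR adjusted p = 0.0345), so that the highest sgP2 library nearly met the lowest sgP1 library, and passed in 3 guide pairs; its call ended without 6 of the 8 libraries, each left out alone. MUC17, a membrane mucin, went the other way, with 108 to 180 CPM in sgP1, 290 to 406 in sgP2 and 900 and 823 in sgNC (edgeR adjusted p = 0.0436), and lost the threshold when any 1 of the 8 libraries was left out (edgeR). MUC5B, a gel-forming mucin chosen after its values were seen, stood at 3.13 to 5.49 CPM in sgP1 and 0.309 to 1.94 in sgP2 and passed in every pair (4.9-fold lower, edgeR adjusted p = 0.00525).

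MAN1A1, a Golgi mannosidase that trims N-glycans, stood at 11.9 to 17.2 CPM in sgP1, 5.06 to 7.78 in sgP2, 11.9 and 18.6 in sgNC and 57.1 to 75.9 in sgDual (2.3-fold lower with sgP2 than with sgP1, edgeR adjusted p = 0.00255). QSOX1, a sulfhydryl oxidase, stood at 123 to 171 CPM in sgP1, 72.9 to 80.8 in sgP2 and 233 to 381 in sgDual (1.89-fold lower, edgeR adjusted p = 0.00299), and its 4 guide pairs lay between -0.945 and -0.891 on the log2 scale. CREB3L1, a transcription factor released from the endoplasmic reticulum membrane, stood at 16.6 to 41.9 CPM in sgP1, 5.92 to 13.9 in sgP2 and 72.0 to 108 in sgDual (edgeR adjusted p = 0.0325), and passed in 1 guide pair. For these 3 genes the sgDual libraries lay above all sgP1 libraries and the sgP2 libraries below them. The mean with sgNC was 96.9 CPM for QSOX1, between the groups, and 9.5 CPM for CREB3L1, beside sgP2. Against sgNC, CREB3L1 differed by 1.45 on the log2 scale with sgP1 and 0.139 with sgP2 (edgeR adjusted p = 0.203 and 0.895).

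The remaining genes named as lower passed in different numbers of guide pairs. LINC02889, a long non-coding RNA gene, was 3.88-fold lower with sgP2 and passed in every pair (edgeR adjusted p = 0.00174). Its 2 sgP1 guides differed from each other (edgeR adjusted p = 0.00395). C2orf88, which encodes a small A-kinase anchoring protein, CAVIN2, a coat protein of caveolae, and NFKBIZ, the NF-κB regulator IκBζ, were 2.9-fold, 3.56-fold and 2.38-fold lower (edgeR adjusted p = 0.0139, 0.0162 and 0.0143) and passed in 0, 2 and 1 guide pairs. For C2orf88 the 4 pair differences lay between -1.6 and -1.463 on the log2 scale, with standard errors of 0.451 to 0.459. With the replicate block all 3, and CREB3L1 and AGR2, passed in every pair, and over the 56 genes followed individually the number that did so rose from 31 to 46. CDH1 did not.

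**Figure D4:**
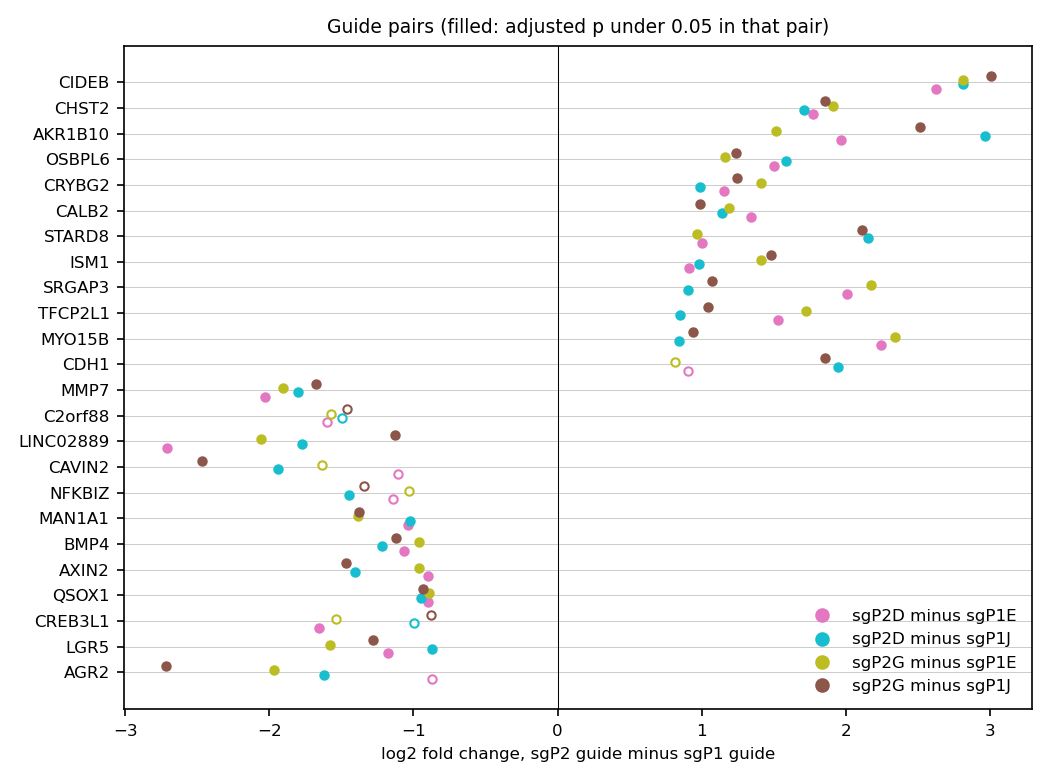
Log2 fold change (x axis) of each sgP2 guide against each sgP1 guide for the 24 named genes; colours mark the 4 guide pairs, and filled points passed the threshold in that pair. Each gene keeps one sign in all 4 pairs, which the rule for naming required, and C2orf88 has no filled point.

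Of the other lists, 3 had no member past the threshold. None of 30 mitosis genes, 22 basal-like genes or 25 cholesterol synthesis genes passed in edgeR, with 2, 7 and 2 at an unadjusted p under 0.05. Of 37 DNA replication genes 1 fell (RFC5), and of 43 interferon-stimulated genes 2 fell (OAS3 and IRF1) and none rose. Among 21 endoderm transcription factors 1 fell, the nuclear receptor NR5A2 (1.33-fold, edgeR adjusted p = 0.0284), while GATA6 stood at 64.5 CPM in sgP1 and 56.5 in sgP2 (edgeR adjusted p = 0.251). Of 20 NF-κB target genes 4 rose (CXCL3, IL1A, IL1B and IL32) and 1 fell (NFKBIZ); none of them passed in every pair. Of 23 ATF4 stress genes 2 rose: DDIT4, an inhibitor of mTORC1, at 57.5 to 74.8 CPM in sgP1 and 94.9 to 99.4 in sgP2 (edgeR adjusted p = 0.000673), and SLC7A11, the cystine transporter, 1.97-fold (edgeR adjusted p = 0.0064). DDIT4 passed in every guide pair and SLC7A11 in 3 of the 4. Of 22 YAP target genes 2 rose (CCN2 and AMOTL2) and 2 fell (AMOTL1 and NUAK2). Of 26 genes of EGF signalling, DUSP4 rose and EGFR fell, and of 22 mesenchymal genes ID2 rose while TGFB1 and MMP7 fell. Against sgNC with sgP2, DUSP4 rose by 0.608 and MMP7 fell by 2.12 on the log2 scale (edgeR adjusted p = 0.00732 and 4.85e-08). EGFR, TGFB1 and ID2 differed from sgNC by -0.084, -0.037 and 1.105 and did not pass (edgeR adjusted p = 0.671, 0.898 and 0.0632). Of 25 genes of fatty acid metabolism PDK4 fell, and of 11 liver plasma proteins CFI fell. Over all genes tested 4.3% passed. Left out one at a time, 6 of the 8 libraries ended the call of RFC5, TGFB1 and PDK4, 5 that of NR5A2 and ID2, 4 that of EGFR, and 3 that of OAS3 and IRF1.

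Of the 54 genes followed individually that passed, 36 kept the call without each of the 8 libraries in turn. The call ended without sgP2D replicate 1 for 17 genes and without sgP2G replicate 1 for 13. In both sets were MYO15B, CDH1, CREB3L1, AGR2, SLC9A3, NR5A2, MUC17, RFC5, IRF1, PDK4, TGFB1 and ID2. CAVIN2, NFKBIZ and HLA-B lost it only without sgP2D replicate 1, NHERF1 only without sgP2G replicate 1, and SLC9A3 without either of these.

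The sequence CAAAGTCCA, a known form of HNF4α binding site, was searched on both strands of the 300-base RefSeq windows around gene starts. Windows were found for 57 of the 79 genes higher and 53 of the 69 genes lower in every guide pair. The sequence was in the windows of 2 of the 57 (3.51%), 0 of the 53, and 0.493% of the genes tested that had a window (56 of 11366). It was in none of the windows of HNF4A and R3HDML-AS1. The sites are shown with 10 bases on either side, 5′ to 3′ on the strand of the gene, with the match in capitals, because CIDEB leads the genes named as higher.
CIDEB, chr14:24308014-24308042, minus strand: tccctcccctTGGACTTTGcccttcttac
TMCC3, chr12:94616042-94616070, minus strand: gcagtatctcCAAAGTCCAggctgagtca
The CIDEB match begins 55 bases and the TMCC3 match 59 bases before the start of 1 of the RefSeq transcripts of each gene. In GENCODE v29 each stretch also lies in an untranslated part of an exon of the gene, and the CIDEB stretch in one of NOP9. TMCC3 stood at 36.1 CPM in sgP1 and 46.2 in sgP2 (log2 0.36, edgeR adjusted p = 0.00843). Binding was not measured.

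The genes that passed in every guide pair were read in Panc10.05 and BxPC3, where doxycycline switched on 1 isoform, P1-a2 or P2-a8, with 2 libraries in each group. The contrast was P1-a2 minus P2-a8, set beside sgP2 minus sgP1 because the guides are labelled by the promoter they repress; which isoforms the guides left was not measured. In Panc10.05 P1-a2 was induced with 25 ng/mL and P2-a8 with 12.5 ng/mL, so isoform and dose cannot be told apart there; BxPC3 received 500 ng/mL throughout. HNF4A stood at 10.7 and 13 CPM with P1-a2 and 37.6 and 37.6 with P2-a8 in Panc10.05, and at 9.76 and 11.6 against 12.6 and 14.2 in BxPC3 (edgeR adjusted p = 5.02e-17 and 0.217), so the total HNF4A level also differed in Panc10.05.

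In BxPC3, 31 of the 71 tested genes that were higher with sgP2 were higher with P1-a2 and 7 were lower, against a background of 11.6% higher and 10.8% lower over all genes. Of 59 tested genes that were lower with sgP2, 15 were lower with P1-a2 and 5 higher. In Panc10.05, 26 of 71 were higher and 23 lower, where the background was 22.2% higher and 24.7% lower, so that the higher genes went both ways. Of 50 lower genes, 21 were lower and 5 higher.

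CIDEB showed the same direction in every line, at 20.4 and 24.0 CPM with P1-a2, 5.11 and 4.40 with P2-a8, and 0.12 and 0.0869 with NC in Panc10.05, and at 30.0 and 32.5, 11.2 and 10.0, and 8.14 and 9.40 in BxPC3. P1-a2 was above P2-a8 by 2.22 and 1.56 on the log2 scale (edgeR adjusted p = 4.08e-19 and 8.31e-06). MOGAT3 was above by 2.59 and 2.06 and MYO15B by 0.67 and 2.57 (edgeR adjusted p at most 0.000533). CIDEC had 2.98 and 3.22 CPM with P1-a2 in Panc10.05 against 1.05 and 0.704 with P2-a8, and 2.42 and 3.49 against 0.0572 and 0.0306 in BxPC3. Other named genes went the opposite way in BxPC3: AKR1B10 by -0.583 and SRGAP3 by -0.654, which were higher with sgP2 (edgeR adjusted p = 0.00228 and 0.00136), and MAN1A1 by 0.873 and C2orf88 by 2.65, which were lower (edgeR adjusted p = 0.00405 and 5.57e-06). In Panc10.05 CHST2, STARD8 and CDH1 fell by 0.786, 0.871 and 1.13 and NFKBIZ rose by 0.258 on the log2 scale, all against their AsPC-1 direction (edgeR adjusted p at most 0.0155). Further named genes passed in their AsPC-1 direction in 1 of these lines. In BxPC3 these were CRYBG2, ISM1, STARD8 and TFCP2L1, by 0.947, 1.257, 1.81 and 1.146 (edgeR adjusted p at most 0.032). In Panc10.05 they were QSOX1 and CAVIN2, by -0.654 and -1.062 (edgeR adjusted p at most 0.00265). BMP4 passed in neither line (0.04 and 0.193, edgeR adjusted p = 0.944 and 0.397). Of the genes that passed in every guide pair, 16 were higher in all 3 lines, among them CRAT, which makes acylcarnitines, and the aminoacylase ACY3.

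On the lower side, 5 of the genes that passed in every guide pair were shared by all 3 lines: ARID5B, the aquaglyceroporin AQP3, IGFBP6, the retinoic acid receptor RARG and the immunoproteasome subunit PSMB8. Another 6 genes of every guide pair passed in both other lines with the opposite sign: PFN2, NEBL, MBNL2 and COL18A1, which were higher with sgP2, and TLR4 and MYO10, which were lower. NEBL, which encodes nebulette, differed by 1.53 on the log2 scale in AsPC-1 but by -4.22 in Panc10.05 and -0.62 in BxPC3. MMP7 was at 0.15 CPM or less in Panc10.05, too low to be tested there, and at 3.60 to 4.80 CPM with both isoforms in BxPC3, where it did not pass (log2 -0.20, edgeR adjusted p = 0.446). AXIN2 and LGR5 were too low to be tested in either line, and R3HDML-AS1 was at 0 CPM in all of their libraries except 1 of BxPC3 (0.0306 CPM).

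**Figure D5:**
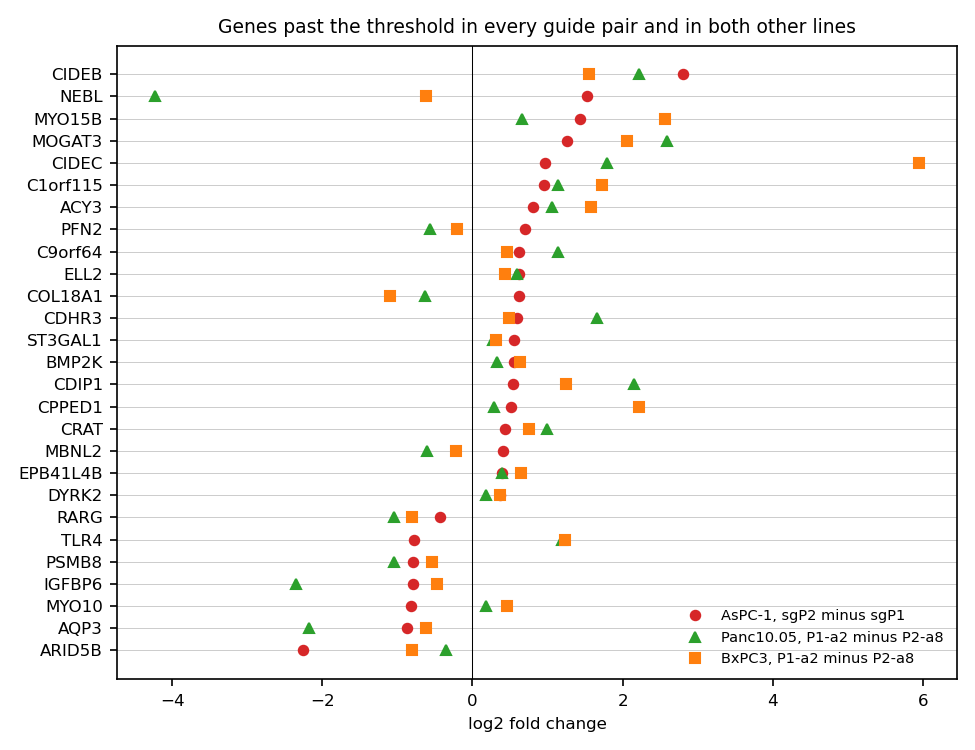
Log2 fold change (x axis) of the 27 genes that passed in every AsPC-1 guide pair and in both other lines; red circles are sgP2 minus sgP1 in AsPC-1, green triangles and orange squares P1-a2 minus P2-a8 in Panc10.05 and BxPC3. In 21 genes the 3 symbols lie on one side of 0, with CIDEC in BxPC3 farthest out at 5.95, and in 6 genes AsPC-1 lies opposite the other lines.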

How the data were processed

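RNA-seq counts per gene were deposited by the authors as whole numbers, 1 table per cell line; they are raw counts with no normalization, and the replicates were not pooled. The libraries were directional and poly(A)-selected, per the labels' protocols. Per the submitters' processing notes, cutadapt 1.16, STAR 2.7.9a, featureCounts 1.6.3 and DESeq2 1.36.0 were used with build GRCh38; the strand setting and annotation of the counting are not given in the sources used here. Gene names and positions came from GENCODE v29, which matched 99.91% of the 62754 identifiers, and sequences from RefSeq (GRCh38.p14). Depth per library is given with the results.

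Counts were tested with edgeR 4.0.16 in R 4.3.3 (filterByExpr, TMM, robust glmQLFit, glmQLFTest, Benjamini-Hochberg adjustment over all 16992 tested genes), with 4 target groups over all 14 AsPC-1 libraries. Guide pairs came from a fit with 7 guide groups, and Panc10.05 and BxPC3 were each fitted alone. CPM used TMM-scaled library sizes. The standard error is the absolute log2 fold change over the square root of F. The scripts were tested on simulated data. Python 3.11.15 with pandas 2.3.3 and matplotlib 3.10.9 drew the figures.

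The named genes had an adjusted p under 0.05, a mean of at least 5 CPM over the 8 libraries, groups that did not overlap and one sign in all 4 guide pairs; the 12 in each direction with the largest of the smallest pair differences were taken. HNF4A, HNF4A-AS1 and HNF4G, and up to 4 passing members of each of 18 gene lists with a mean of at least 5 CPM, were added. Members and lists were chosen with earlier results of these data known.

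Deviations of same-numbered libraries from their guide's mean correlated between guides (0.256 to 0.75 over 21 guide pairs and 10552 genes; 0.555 to 0.75 over the 6 pairs of the 4 sgP1 and sgP2 guides), so the replicate numbers of the titles were taken to pair the libraries, and a fit with the replicate number as a block was made. The 2 libraries of each sgP1 or sgP2 guide differed by more than sampling noise (chi-square per degree of freedom 9.59 to 24.1). Alternatives were other normalizations, DESeq2 1.42.0, no filter, the 8 libraries alone, counts summed per guide, guides as groups, a fold limit, and each library or guide left out; a guide left with 1 library was assumed to vary like the others. The value of 1 list member is not reported here.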

Additional observations from a re-analysis of the deposited data

Results flagged for a closer look

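In 3 of 112 groups of 4 libraries of the genes followed individually, 1 library stood far from the other three (its gap to the nearest, over the range of the group, was 0.836 to 0.887, above Dixon's 95% critical value); about 1 group in 20 does so by chance. TFCP2L1 was at 9.53 CPM in sgP2D replicate 2, and the next sgP2 library was at 12.3. MUC17 was at 108 CPM in sgP1J replicate 2, and the next sgP1 library was at 172. PSMB8 was at 13.8 CPM in sgP2D replicate 1, and the next sgP2 library was at 17.6.

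For 7 genes, P1-a2 lay wholly on one side of P2-a8 in Panc10.05 and wholly on the other side in BxPC3; the difference between the lines was not tested. The log2 fold changes in Panc10.05 and BxPC3 were -0.786 and 0.737 for CHST2, -0.871 and 1.81 for STARD8, -1.132 and 0.133 for CDH1, and -0.654 and 0.208 for QSOX1. They were 0.26 and -0.727 for DDIT4, 0.665 and -0.41 for SLC7A11, and -0.381 and 0.217 for AMOTL1. Isoform and doxycycline dose cannot be told apart in Panc10.05.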

How the results depend on the processing

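Between the targets, 731 genes passed with edgeR; the count was 1204 with the replicate block, 1272 with DESeq2, 2086 with 7 guide groups, 189 with the 8 libraries alone, 161 with a fold limit, 6 with counts summed per guide, and 2764, 306 and 411 without guide sgP1E, sgP2D and sgP2G. Without 1 library at a time it was 324 to 1208. The 148 genes of every guide pair became 464 with the replicate block, 310 with no filter, 78 with the 8 libraries alone and 32 with the fold limit, and 62 to 156 without 1 library. Between the sgP1 guides, 2467 became 4616 with the replicate block and 1492 to 2463 without 1 library (1535 and 1492 without sgP1E replicate 1 and 2, 1572 without sgP1J replicate 2). Between the sgP2 guides, 288 became 778 with the replicate block, 649 with no filter and 137 to 336 without 1 library. The cause was not tested.

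Of 44 values of these counts and of the counts in the other lines under settings that keep every library, or leave out a guide, 28 stayed within 1.5 times. The genes read in Panc10.05 and BxPC3 moved under none of 32 values; without 1 library the shared genes were 24 to 30 (higher) and 10 to 13 (lower) in BxPC3 and 23 to 23 and 20 to 21 in Panc10.05. Over 1120 values of the 56 genes followed individually, 912 kept direction and call, 207 lost the call, 1 gained it and 0 reversed; summed counts per guide alone ended 50 calls. The replicate block ended no call of these genes. The leave-one-out counts between guides of 1 target and the ranges of the list counts were added after seeing the data.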

Other observations

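HLA-C, HLA-B and PSMB8, 3 genes chosen after their values were seen, were lower with sgP2 in every guide pair. HLA-C, an antigen-presenting protein, was 1.65-fold lower (39.0 ± 6.08 CPM in sgP1 and 23.6 ± 2.82 in sgP2, n = 4 each; edgeR adjusted p = 0.00378), against 25.7 and 25.8 CPM in sgNC and 50 to 67.5 in sgDual. HLA-B, whose annotated span overlaps HLA-C, was 1.77-fold lower (edgeR adjusted p = 0.0162), and reads of these similar genes may be split between them. The mean of HLA-B was 19.6 CPM in sgP1, 11.1 in sgP2 and 11.5 in sgNC. Its sgP1 guides and its sgP2 guides each differed from one another (edgeR adjusted p = 0.0206 and 0.00289). For HLA-C the sgP1 guides differed from each other (edgeR adjusted p = 0.0164). PSMB8, an immunoproteasome subunit, stood at 25.2 to 36.3 CPM in sgP1 and 13.8 to 18.1 in sgP2 (edgeR adjusted p = 0.0013); it overlaps PSMB8-AS1 and PSMB9 on the opposite strand.

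SOSTDC1, ARID5B, WNT16 and IRF8, also chosen after their values were seen, differed in every guide pair. SOSTDC1, a secreted antagonist of BMP and Wnt signalling, stood at 2.89 CPM in sgP1 and 0.293 in sgP2 (edgeR adjusted p = 0.000546), and ARID5B, a DNA-binding regulator, at 4.81 and 0.995 (edgeR adjusted p = 2.53e-05). WNT16, a Wnt ligand, stood at 1.72 and 0.735 CPM (edgeR adjusted p = 0.00422). IRF8, a transcription factor of the interferon regulatory family, had a mean of 14 CPM in sgP1 and 50 in sgP2 and passed in every guide pair, yet not between the targets (edgeR adjusted p = 0.0687), with pair differences from 0.98 to 3.64 on the log2 scale.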
